A study of Mus musculus with 12 samples.

Results

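Granzymes are serine proteases that cytotoxic lymphocytes store in granules and release onto target cells, and perforin is the pore-forming protein that lets them enter. The 8 genes described here were Gzma, Gzmb, Gzmc, Gzmd, Gzme, Gzmf, Gzmg and Prf1, the gene for perforin. They were chosen by name for a large fall late after doxycycline removal, that is, by their level at day 6 against earlier tumours. All 8 were among the 19937 mouse genes that had a probe set of their own on the array. Their values at day 6 are therefore given below as a description with no test.

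The study asks what the Hippo pathway effector YAP1 does in rhabdomyosarcoma, a cancer whose cells resemble skeletal muscle. Tumours at day 0 of doxycycline removal (TUM), after 3 days off the drug (OFF3) and after 6 days off it (OFF6) were set beside control hindlimb muscle (CTL), with 3 arrays per group and 12 in all. Every group carried Myf5Cre, R26-LSL-rtTA and Col1a-Teto-hYAP1 S127A on C57BL/6, an inducible mutant human YAP1 whose activator rtTA is expressed in cells with a Myf5 history. For the tumours, donors were kept on doxycycline for 4 weeks, and interstitial cells isolated from their hindlimbs were put into a calf muscle, the gastrocnemius, of NOD/SCID mice that also received the drug. The CTL muscle came from uninduced mice of the same genotype with no transplant. Transplantation, host strain, drug and tissue thus change together between TUM and CTL, and their parts cannot be told apart there. The labels give no age, and whether each replicate was its own animal is not stated. The p-values therefore cover no more than the spread among these arrays, which may be technical.

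In mice, granzyme and perforin transcripts are known mainly from natural killer (NK) cells and activated cytotoxic T cells. NOD/SCID hosts lack mature T and B cells but keep NK cells, of reduced activity, and myeloid cells. Each array measured RNA of a whole tissue piece, so fewer cells of a type and less RNA per cell cannot be told apart. Values below are log2 of the deposited intensity, and a difference of 1 is a 2-fold change. Adjusted p-values come from limma's moderated test over all 19937 genes with Benjamini-Hochberg adjustment, and the threshold for a call was 0.05.

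By RefSeq's annotation, Gzmb, Gzmc, Gzmd, Gzme, Gzmf and Gzmg lie on chromosome 14, in a cluster of protease genes that also holds Gzmn, Ctsg and mast cell proteases. Gzma lies on chromosome 13 and Prf1 on chromosome 10. Gzmc to Gzmg are close copies of each other, as their promoters show. Within the window from 250 bases before to 50 bases after each start (RefSeq, build GRCm38.p6), the 10 pairs among these 5 genes were 83.8% to 93.7% identical over 279 to 300 aligned columns. In the other 18 pairs of the 8 promoters, at most 78 columns overlapped. The 115-base stretches below are shown because they hold the longest run that all 5 genes share, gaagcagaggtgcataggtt, which is 20 bases long. Capitals mark matches to the RUNX motif TGTGGT and to the cyclic AMP response element TGACGTCA.
Gzmd, chr14:56132603-56132717, minus strand: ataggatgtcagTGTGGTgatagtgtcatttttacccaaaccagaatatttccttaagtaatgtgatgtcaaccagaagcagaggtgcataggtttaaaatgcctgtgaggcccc
Gzme, chr14:56120636-56120750, minus strand: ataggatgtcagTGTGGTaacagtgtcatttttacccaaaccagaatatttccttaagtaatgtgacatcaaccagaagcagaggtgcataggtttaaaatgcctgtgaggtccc
Gzmf, chr14:56211438-56211552, minus strand: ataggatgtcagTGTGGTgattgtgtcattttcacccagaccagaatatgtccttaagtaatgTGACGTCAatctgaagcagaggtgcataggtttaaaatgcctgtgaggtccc
Gzmg, chr14:56159605-56159719, minus strand: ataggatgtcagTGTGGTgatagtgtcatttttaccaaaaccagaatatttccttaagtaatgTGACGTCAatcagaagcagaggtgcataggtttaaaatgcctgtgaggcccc
Gzmc, chr14:56234663-56234777, minus strand: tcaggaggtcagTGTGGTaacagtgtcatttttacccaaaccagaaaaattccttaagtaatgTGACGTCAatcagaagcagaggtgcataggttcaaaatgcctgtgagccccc

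The Gzmb promoter is shown beside them because Gzmb lies in the same cluster, and its OFF6 minus TUM was -0.69. It runs from 250 bases before to 50 bases after the start, and capitals mark TGTGGT and the AP-1 motif TGANTCA.
Gzmb, chr14:56262285-56262584, minus strand: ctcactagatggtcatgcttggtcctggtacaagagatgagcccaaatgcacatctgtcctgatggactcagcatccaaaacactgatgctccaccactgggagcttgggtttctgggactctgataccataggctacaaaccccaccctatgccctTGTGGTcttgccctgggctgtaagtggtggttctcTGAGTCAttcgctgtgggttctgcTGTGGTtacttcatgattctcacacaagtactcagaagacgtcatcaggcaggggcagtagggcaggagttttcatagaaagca

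Motifs were searched on both strands, and a match is a description of letters, not of binding. Gzmc to Gzmg are close copies, so their matches are not independent of each other, and no count was tested against its share. TGTGGT occurred in 8 of 8 members' promoters and in 16.8% of all 32851 promoters of the same length. TGACGTCA occurred in 3 of 8, in Gzmc, Gzmf and Gzmg, and in 1.79% of all. In these 3 it began 57, 82 and 77 bases before the start, given as -57, -82 and -77. TGANTCA occurred in 1 of 8, at -58 in Gzmb, and in 7.81% of all, while the T-box motif TCACACC occurred in 0 of 8 and in 3.98% of all. No match overlapped one of another motif. Gzmc to Gzmg each held a second match to the RUNX motif, on the other strand and upstream of the stretch printed. Gzmd and Gzme hold no TGACGTCA in this window.

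At day 0 all 8 genes were higher in tumour than in control muscle, and for Gzmc to Gzmg the difference was more than 15-fold. The day 0 level of Gzmd to Gzmg was nearly the same on each TUM array. After 3 days off doxycycline 7 of the 8 were lower than at day 0. At day 6 Gzmd, Gzmf and Gzmg lay 12.6- to 18.9-fold below day 0, while Gzma lay within the spread of its arrays. The 8 genes did not follow 1 course. The description below goes from perforin to the granzymes of known substrate and then to the Gzmd to Gzmg copies.

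**Figure D1:**
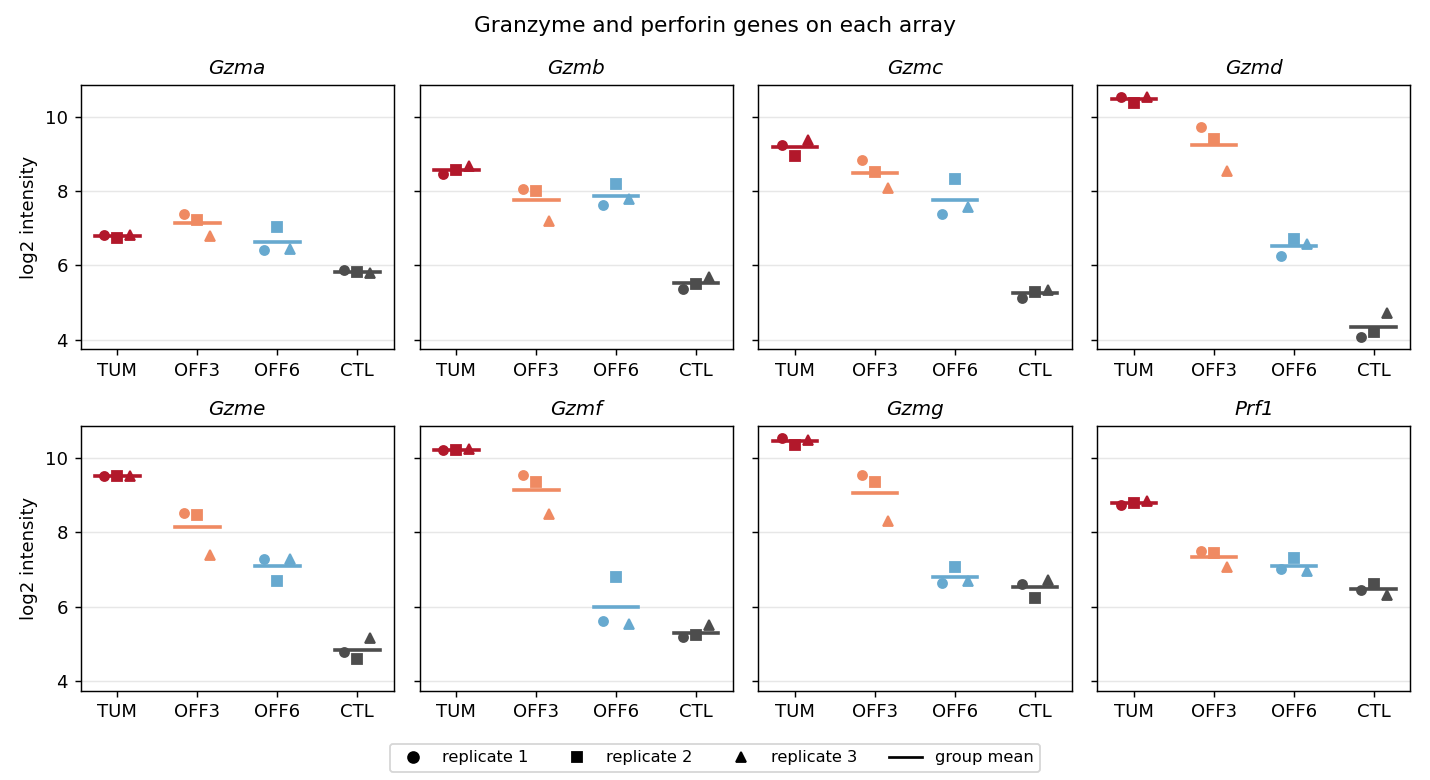
Log2 intensity of each of the 8 genes (vertical axis) on each array, in tumours at day 0 (TUM), 3 days off doxycycline (OFF3), 6 days off (OFF6) and control muscle (CTL); points are single arrays, marker shapes the replicate numbers, and lines the group means (n = 3). Gzmd, Gzmf and Gzmg have means above 10 in TUM and under 7 in OFF6, and Gzma stays between 6.42 and 7.38 in all tumours.

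Prf1 encodes perforin, without which granzymes do not reach the target's cytosol. On probe set 10363475 it measured 8.73, 8.78 and 8.83 in TUM, 7.49, 7.45 and 7.07 in OFF3, 7.01, 7.30 and 6.95 in OFF6, and 6.44, 6.62 and 6.32 in CTL. The OFF3 and OFF6 arrays overlapped each other, lay wholly under TUM and stayed wholly above CTL. TUM exceeded CTL by 2.32 ± 0.12 (SE), which is 4.98-fold, with limma's adjusted p = 2.14e-09. OFF3 fell by 1.44 ± 0.12 relative to TUM, which is 2.72-fold, with adjusted p = 2.48e-06. OFF6 minus TUM was -1.69 and OFF6 minus OFF3 was -0.25, so most of the day 6 difference was present at day 3.

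Gzma is a tryptase, cutting after lysine or arginine, and is abundant in resting NK cells. On probe set 10412211 it measured 6.82, 6.73 and 6.81 in TUM, 7.38, 7.23 and 6.78 in OFF3, 6.42, 7.03 and 6.43 in OFF6, and 5.86, 5.81 and 5.78 in CTL. All tumour arrays lay above CTL, and the 3 tumour groups overlapped. Its level in TUM exceeded that in CTL by 0.97 ± 0.16, which is 1.96-fold, with adjusted p = 0.000162 from limma. OFF3 minus TUM was 0.34 ± 0.16 (adjusted p = 0.152), and without OFF3 replicate 3 it was 0.52 (adjusted p = 0.027). Over 21 alternatives this adjusted p ran from 5.92e-05 to 0.391, and 3 of them made the call. At day 6 Gzma was 0.16 below day 0 and 0.50 below day 3, and 0.36 and 0.70 below them without OFF6 replicate 2. Its OFF6 arrays overlapped both TUM and OFF3, and neither difference was tested.

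Gzmb cuts after aspartate and sets off caspases in the target cell. On probe set 10420308 it measured 8.46, 8.57 and 8.66 in TUM, 8.04, 7.99 and 7.19 in OFF3, 7.63, 8.20 and 7.79 in OFF6, and 5.35, 5.49 and 5.68 in CTL. OFF3 and OFF6 overlapped, and both lay between TUM and CTL with no overlap with either. Tumours at day 0 exceeded muscle by 3.05 ± 0.20, which is 8.30-fold, with limma's adjusted p = 2.02e-08. OFF3 fell by 0.82 ± 0.20 relative to TUM (1.76-fold, adjusted p = 0.00804). OFF6 minus TUM was -0.69 and OFF6 minus OFF3 was 0.13, so the day 6 mean of Gzmb was no lower than its day 3 mean. That last value was -0.14 without OFF3 replicate 3 and -0.03 without OFF6 replicate 2.

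Gzmc is a chymase-like granzyme of mouse killer cells. On probe set 10420302 it measured 9.22, 8.94 and 9.36 in TUM, 8.84, 8.51 and 8.08 in OFF3, 7.37, 8.31 and 7.58 in OFF6, and 5.12, 5.28 and 5.34 in CTL. Its 4 groups stood in that order by mean, but OFF3 and OFF6 overlapped through OFF6 replicate 2. TUM exceeded CTL by 3.93 ± 0.23, which is 15.2-fold, with adjusted p = 5.54e-09 from limma. OFF3 fell by 0.70 ± 0.23 relative to TUM, which is 1.63-fold, with adjusted p = 0.0344. This call was lost in 7 of 22 alternatives, where limma's adjusted p ran from 1.94e-05 to 0.151 over all 22. Without TUM replicate 1, TUM replicate 3, OFF3 replicate 2 or OFF3 replicate 3 the difference was -0.68, -0.61, -0.72 and -0.50, and none of these passed. OFF6 minus TUM was -1.42.

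Gzmd, Gzme, Gzmf and Gzmg are rodent granzymes that have no human counterpart, and their substrates are poorly known. Gzmd measured 10.53, 10.37 and 10.53 in TUM, 9.73, 9.41 and 8.55 in OFF3, 6.26, 6.70 and 6.56 in OFF6, and 4.06, 4.20 and 4.73 in CTL, on probe set 10420274. No array of any group overlapped those of another. TUM was higher than CTL by 6.15 ± 0.25, or 70.8-fold (adjusted p = 2.17e-10). OFF3 fell by 1.25 ± 0.25 relative to TUM (2.37-fold, adjusted p = 0.00226). OFF6 minus TUM was -3.97, a 15.7-fold difference, and OFF6 still lay 2.18 above CTL.

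Gzme measured 9.52, 9.52 and 9.50 in TUM, 8.52, 8.48 and 7.39 in OFF3, 7.27, 6.69 and 7.28 in OFF6, and 4.79, 4.59 and 5.14 in CTL, on probe set 10420268. Its groups did not overlap either, and it was the member whose OFF6 replicate 2 was the lowest of its group. TUM exceeded CTL by 4.67 ± 0.26 (25.5-fold, limma's adjusted p = 4.01e-09). OFF3 fell by 1.39 ± 0.26 relative to TUM (2.61-fold, adjusted p = 0.00145). At day 6 the difference from TUM was -2.43, a 5.41-fold difference.

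Gzmf measured 10.20, 10.21 and 10.23 in TUM, 9.55, 9.36 and 8.48 in OFF3, 5.61, 6.78 and 5.53 in OFF6, and 5.17, 5.22 and 5.50 in CTL, on probe set 10420295. At day 6 it stood close to muscle, with OFF6 replicates 1 and 3 just above the highest CTL array and OFF6 replicate 2 apart from them by 1.21. Against CTL, TUM was higher by 4.92 ± 0.31 (30.2-fold, limma's adjusted p = 1.22e-08). OFF3 fell by 1.09 ± 0.31 relative to TUM (2.13-fold, adjusted p = 0.0177). Without TUM replicate 3 that difference was -1.08 and without OFF3 replicate 3 it was -0.76, and neither passed (adjusted p = 0.0518 and 0.0794, range over 22 alternatives 1.16e-05 to 0.0794). OFF6 minus TUM was -4.24, or 18.9-fold, and -4.64 without OFF6 replicate 2.

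Gzmg measured 10.53, 10.35 and 10.47 in TUM, 9.53, 9.34 and 8.31 in OFF3, 6.62, 7.07 and 6.68 in OFF6, and 6.62, 6.22 and 6.71 in CTL, on probe set 10420280. It was the member whose OFF6 arrays overlapped CTL, with OFF6 minus CTL at 0.28. Against CTL, TUM was higher by 3.94 ± 0.25 (15.3-fold, limma's adjusted p = 1.6e-08). OFF3 fell by 1.39 ± 0.25 relative to TUM (2.62-fold, adjusted p = 0.00114). OFF6 minus TUM was -3.66, or 12.6-fold.

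Probes for near-copies such as Gzmd to Gzmg can detect transcripts of more than one of them. Probe and transcript sequences were not used here, so how far their 4 signals are separate measurements was not tested. OFF6 replicate 2 was the highest of its group for Gzmd, Gzmf and Gzmg and the lowest for Gzme. Levels of different probe sets are not compared as amounts of RNA. The level that each of them reads with no transcript present is not known, so a fold against a low group may be understated and folds are not ranked between members.

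**Figure D2:**
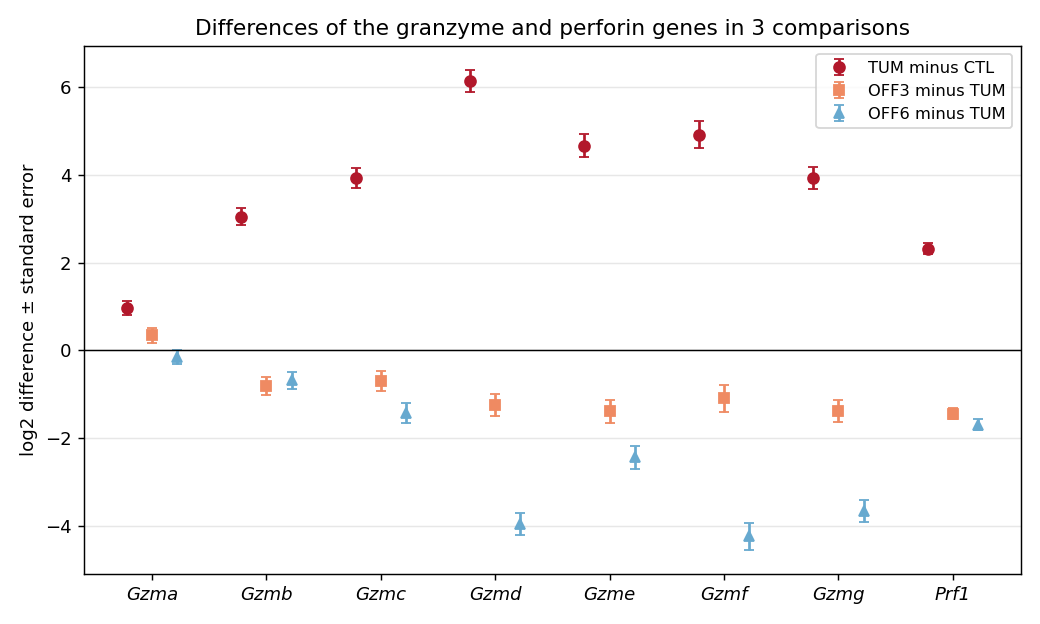
Log2 difference ± standard error (vertical axis) of each gene for TUM minus CTL, OFF3 minus TUM and OFF6 minus TUM (3 arrays per group). All 8 are above 0 for TUM minus CTL, and Gzmf, Gzmd and Gzmg have OFF6 minus TUM near -4 while Gzma and Gzmb stay above -0.7.

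Over the 8 genes, TUM minus CTL had 8 called higher and 0 lower with a median of 3.93. Of all genes 76.2% were called in that comparison, with 30.3% of all genes higher and 45.9% lower in TUM, and the all-gene median was -0.15. In OFF3 minus TUM 7 were called lower, 0 higher and 1 not called, with a median of -1.17, against 29.4% of all genes called, 16% called lower and a median of 0.02. Both comparisons use TUM arrays that also entered the day 6 fall that chose the genes. OFF3 minus TUM also uses OFF3 arrays, which were among the earlier tumours of that choice. For OFF6 minus TUM the 8 differences ran from -4.24 to -0.16 with a median of -2.06, and 31.5% of all genes were called, 16.6% as lower, with an all-gene median of 0.05. Nothing is read from those shares for the 8 genes, which this difference chose. For OFF6 minus OFF3 they ran from -3.15 to 0.13 with a median of -0.89 (10.4% of all genes called, 6.05% higher and 4.38% lower, median 0.02). For OFF6 minus CTL they ran from 0.28 to 2.50 with a median of 1.50 (64.2% called, 28.1% higher and 36.1% lower, median -0.09). Most of the day 6 difference of Gzmd, Gzmf and Gzmg arose between days 3 and 6, where they differed by -2.72, -3.15 and -2.27. Most of that of Prf1 and Gzmb was there by day 3. Gzme, another of the copies, differed by -1.39 from day 0 to day 3 and by -1.05 from day 3 to day 6. For Gzmc these values were -0.70 and -0.72.

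Arrays of the compared groups did not overlap for 8 of 8 genes in TUM against CTL, where this was so for 82.7% of all genes. The same held for 7 of 8 in OFF3 against TUM, with 44.8% of all genes, and for 7 of 8 in OFF6 against TUM, with 48.5%. It held for 4 of 8 in OFF6 against OFF3 (21.2% of all genes) and for 7 of 8 in OFF6 against CTL (68.5%). The 4 that separated day 6 from day 3 were Gzmd, Gzme, Gzmf and Gzmg. For Gzma, Gzmb, Gzmc and Prf1 the arrays of those 2 groups overlapped.

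Replicates within a group were not equally alike. SDs over the 3 TUM arrays ran from 0.01 for Gzme to 0.22 for Gzmc, and those over the OFF3 arrays from 0.23 for Prf1 to 0.66 for Gzmg. OFF3 replicate 3 was the lowest of its group for 8 of 8 genes, by 0.40 for Prf1 to 1.13 for Gzmg below the mean of the other two. OFF6 replicate 2 was the highest of its group for 7 of 8. Over all probe sets of the array, OFF6 replicate 2 correlated with the OFF3 arrays at a mean of 0.993 and with the other OFF6 arrays at 0.991. Left out of OFF6 minus TUM, it moved Gzma to -0.36, Gzmb to -0.85, Gzmc to -1.70 and Prf1 to -1.80.

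Summed over the 8 probe sets, intensity was 5969 to 6446 on TUM arrays, 1875 to 3770 on OFF3 arrays, 957 to 1351 on OFF6 arrays and 392 to 439 on CTL arrays. No group overlapped another by this sum. Gzmd, Gzmf and Gzmg, whose signals may not be separate, held much of it in TUM, at mean intensities of 1424, 1188 and 1400. For Gzma, Gzmb, Gzmc and Prf1 the OFF3 and OFF6 arrays overlapped gene by gene. Over the 9 tumour arrays, log2 profiles of Gzmd and Gzmg correlated at 0.996, those of Gzmd and Gzmf at 0.987 and those of Gzmf and Gzmg at 0.983. Gzma correlated with the other 7 at 0.08 (Prf1) to 0.54 (Gzmf). These points share their 3 groups, so the correlations describe the time course and carry no p. Against the mean of the 8 standardised profiles, Gzmg stood at 0.98, Gzmb at 0.78 and Gzma at 0.49.

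Over the 9 tumour arrays, 2009 genes, members among them, had a log2 range of at least 1. The non-members of these most like that mean were Tmem98 (r = 0.991), Frk (0.988), Pcdh18 (0.984), Fnbp1l and Htra1 (0.980 each). Next came Fam91a1 (0.980), Tbrg3 and Prkar2b (0.979 each), F2r and Mettl4 (0.978 each). Tmem98 encodes a membrane protein, Frk a tyrosine kinase, Pcdh18 a protocadherin, Htra1 a secreted serine protease and F2r the thrombin receptor PAR1. Their day 6 differences from day 0 were smaller than those of Gzmd to Gzmg, from -0.80 for Mettl4 to -1.47 for Prkar2b. Of the 10, 9 averaged higher in TUM than in CTL, and Mettl4 did not, at 9.18 in TUM and 9.34 in CTL. None of the 10 stands on the NK list used below, though many genes of that list also varied by less than 1 and could not enter. No granzyme could enter either, since members were left out and Gzmk, Gzmm and Gzmn varied by less than 1 over these arrays.

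The 3 other granzyme genes measured, Gzmk, Gzmm and Gzmn, were not called in either comparison of tumours off doxycycline with day 0. Gzmk, a tryptase gene that shares chromosome 13 with Gzma, measured 5.32, 5.36 and 5.21 in TUM, 5.37, 5.44 and 5.51 in OFF3, 5.39, 5.52 and 5.44 in OFF6, and 5.44, 5.28 and 5.40 in CTL. Gzmn, which lies between Gzmg and Gzmf, stayed between 4.22 and 4.38 on all 12 arrays. Gzmm, which cuts after methionine, fell by 0.88 ± 0.10 in TUM relative to CTL (adjusted p = 3.14e-06 by limma). For OFF6 minus TUM these 3 had 0.15, -0.03 and 0.10 with adjusted p = 0.116, 0.683 and 0.494 in the order Gzmk, Gzmn, Gzmm.

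Along the chromosome 14 cluster, 13 genes from Cma1 to Gzmb were measured, 6 of them on the list. At the far end from Gzmb lie the mast cell and basophil proteases Cma1, Mcpt1, Mcpt2, Mcpt4 and Mcpt8. Mcpt2 rose by 2.01 ± 0.09 in OFF3 and 1.82 ± 0.09 in OFF6 relative to TUM (limma's adjusted p = 2.25e-08 and 3.47e-08), and Mcpt1 by 0.31 in OFF6 (adjusted p = 0.0179). Mcpt8 fell by 0.49 in OFF3 (adjusted p = 0.00391) and was at -0.12 in OFF6 (adjusted p = 0.453). Ctsg, cathepsin G and the neighbour of Gzme, measured 7.97, 7.96 and 7.95 in TUM, 7.31, 7.17 and 7.23 in OFF3, 5.83, 7.50 and 5.98 in OFF6, and 5.52, 5.54 and 5.41 in CTL. Its OFF3 minus TUM was -0.72 ± 0.31 (adjusted p = 0.109), and it fell by 1.52 ± 0.31 in OFF6 relative to TUM (adjusted p = 0.00226), with -2.06 without OFF6 replicate 2. The spread of the OFF6 arrays enters both errors. Without OFF6 replicate 2 the day 3 difference was -0.72 ± 0.06 (limma's adjusted p = 2.6e-06). Without OFF3 replicate 3 it was -0.72 and did not pass (adjusted p = 0.204). Of the 7 measured cluster neighbours that are not on the list, 2 rose, 1 fell and 4 did not pass in OFF6 minus TUM. Of all genes 14.9% were called higher there and 16.6% lower.

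**Figure D3:**
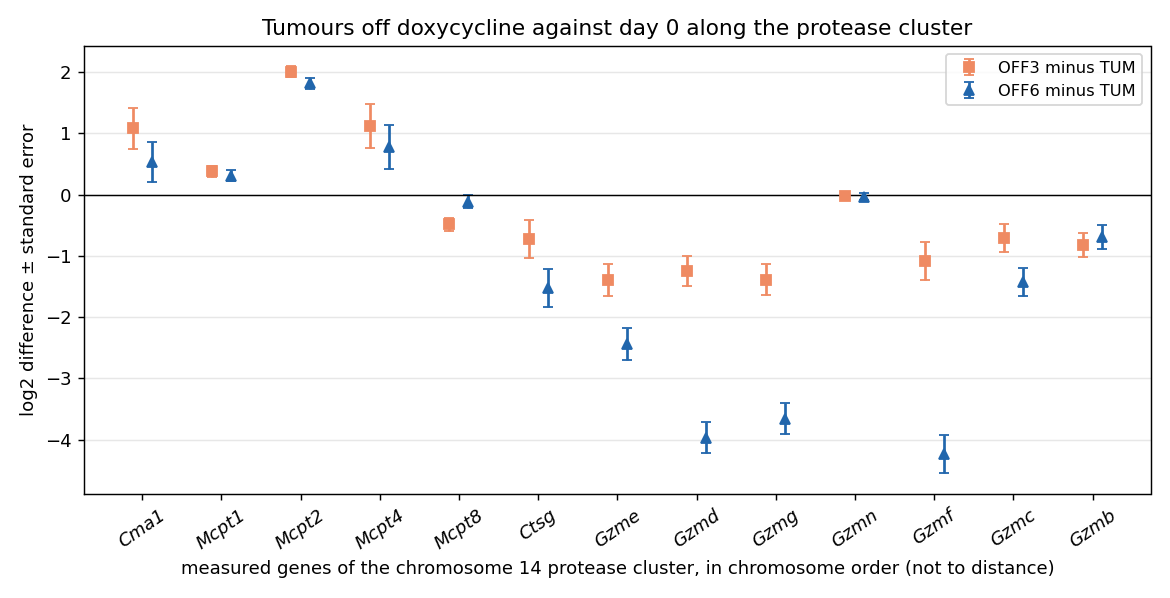
Log2 difference ± standard error (vertical axis) for OFF3 minus TUM and OFF6 minus TUM of the 13 measured genes of the chromosome 14 protease cluster, in chromosome order but not to distance (3 arrays per group). From Ctsg to Gzmb every value is -0.69 or lower except at Gzmn, which stays at -0.02 and -0.03.

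The rest of the granule machinery was measured with 15 genes outside the list of 8, which include Gzmk, Gzmm and Gzmn from above. In OFF6 minus TUM 3 rose, 2 fell and 10 did not pass, those 3 among them, with a median of 0.13, beside 14.9% of all genes called higher and 16.6% lower. Nkg7, a granule membrane protein needed for killing, rose by 0.96 ± 0.17 (adjusted p = 0.000693 by limma) and Unc13d, which primes granules for release, by 0.51 (adjusted p = 0.00268). Tnfsf10, the death ligand TRAIL, rose by 0.56 (adjusted p = 0.00721). Ctsc, which removes the propeptide that keeps granzymes inactive, fell by 0.53 ± 0.11 (adjusted p = 0.00189), and Calr, a chaperone also found in granules, fell by 0.25 (adjusted p = 0.00409). Srgn, the proteoglycan that packs granzymes, was at -0.10 (adjusted p = 0.247), and Fasl at 0.13 (adjusted p = 0.182). In OFF3 minus TUM 4 of the 15 rose and 1 fell, among 13.4% and 16% of all genes, Lamp1 rising by 0.39 and Stx11 falling by 0.31. Without OFF3 replicate 3 Stx11 was at -0.22 and no longer passed (limma's adjusted p = 0.156), which left 4 risen and 0 fallen.

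Inhibitors and targets of granzymes were measured with 8 genes. Serpinb9 blocks granzyme B in cells that express it. It measured 9.24, 8.91 and 9.17 in TUM, 8.68, 8.54 and 8.28 in OFF3, 8.41, 8.74 and 8.44 in OFF6, and 6.35, 6.63 and 6.63 in CTL. Tumours on and off doxycycline did not overlap for Serpinb9, and all stayed above muscle. It fell by 0.61 ± 0.13 in OFF3 and by 0.58 ± 0.13 in OFF6 relative to TUM (limma's adjusted p = 0.00334 and 0.00423). Its relatives Serpinb9b and Serpinb6b fell by 1.82 ± 0.15 and 0.93 ± 0.08 in OFF6 (adjusted p = 1.21e-06 and 2.1e-06). Igf2r, a receptor that has been described to take up granzyme B, rose by 1.00 ± 0.06 and Dffa, the inhibitor of the caspase-activated nuclease, by 0.34 (adjusted p = 1.92e-07 and 0.00491). Bid, a granzyme B substrate, was at -0.39 (adjusted p = 0.0535). Of the 8 genes 2 rose, 3 fell and 3 did not pass at day 6, and 1 rose, 5 fell and 2 did not pass at day 3. Of all genes 14.9% rose and 16.6% fell at day 6, and 13.4% and 16% at day 3.

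NK cells are the cytotoxic lymphocytes that NOD/SCID hosts keep, so their receptors and factors were set beside the granzymes. Of 27 measured genes 17 were higher and 3 lower in TUM than in CTL, beside 30.3% and 45.9% of all genes. In OFF6 minus TUM 11 rose, 1 fell and 15 did not pass, with a median of 0.26, beside 14.9% of all genes called higher and 16.6% lower. Ncr1, the activating receptor NKp46, measured 6.12, 6.11 and 6.07 in TUM, 7.38, 7.06 and 6.81 in OFF3, 6.41, 7.69 and 6.72 in OFF6, and 4.98, 4.98 and 5.33 in CTL. Every tumour array off doxycycline lay above the TUM arrays for Ncr1. At day 3 Prf1 and Gzmb lay on the opposite side, and their day 6 values entered the choice of the genes. Ncr1 rose by 0.98 ± 0.25 in OFF3 and by 0.84 ± 0.25 in OFF6 (limma's adjusted p = 0.0107 and 0.0227), and in OFF6 by 0.47 without replicate 2 (adjusted p = 0.0318).

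Klrk1, the activating receptor NKG2D, rose by 0.81 in OFF3 and by 0.80 in OFF6 relative to TUM (limma's adjusted p = 0.0246 and 0.0256). The chemokine Xcl1 rose by 1.19 and 1.29 at the same times and the surface protein Cd7 by 1.05 and 1.15 (adjusted p = 0.000397, 0.000185, 0.00116 and 0.000546). At day 6 the transcription factors Eomes and Tbx21 rose by 0.52 and 0.42 (adjusted p = 0.0062 and 0.00118), and Il2rb, a chain of the receptors for IL-2 and IL-15, by 0.53 (adjusted p = 0.0483). Tbx21 was higher in CTL, at 6.71 to 6.86, than in OFF6, at 6.40 to 6.65. In OFF6 minus TUM Klrd1 was at 0.29 (adjusted p = 0.396), Klrb1c at 0.14 (adjusted p = 0.0684) and the cytokine Ifng at 0.11 (adjusted p = 0.324). Klrb1c stayed between 4.37 and 4.61 on all arrays. Il18rap, a chain of the IL-18 receptor, was the gene of this list that fell, by 0.92 ± 0.15 in OFF3 and 1.14 ± 0.15 in OFF6 (adjusted p = 0.000441 and 7.04e-05).

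Summed intensity of the 27 NK genes was 7597 to 8034 on TUM arrays, 9490 to 10459 on OFF3 arrays, 8115 to 11168 on OFF6 arrays and 1988 to 2094 on CTL arrays. Every OFF3 and OFF6 array lay above the TUM arrays by this sum. By the sum of the 8 genes the OFF3 arrays lay below TUM. So did the OFF6 arrays, but the 8 genes were chosen for their day 6 fall, so that side is no contrast. Tyrobp and Id2, also expressed by myeloid and other cells, were among its brightest genes, at 11.07 to 11.15 and 10.81 to 10.92 in TUM. With Tyrobp, Fcgr3, Id2 and Itga2 left out, a choice made after values were seen, the remaining 23 genes summed to 2980 to 3154 in TUM, 3772 to 4773 in OFF3, 4153 to 5571 in OFF6 and 1155 to 1310 in CTL. Ccl5, a chemokine that T and myeloid cells also make, held a large share of this, at an intensity of 1130 to 1259 in TUM, 1470 to 1906 in OFF3, 1970 to 2186 in OFF6 and 121 to 136 in CTL. Without Ccl5 as well, the other 22 genes summed to 1850 to 1949 in TUM, 2302 to 2867 in OFF3, 2183 to 3386 in OFF6 and 1034 to 1175 in CTL. Without OFF6 replicate 2, OFF6 minus TUM had 8 NK genes higher and 5 lower with a median of 0.13. The 5 were Il18rap, Itga2, Tyrobp, Fcgr3 and Id2. Of these, Itga2, Tyrobp, Fcgr3 and Id2, also expressed by other cells, are the genes left out of the smaller sums above. Those sums thus omit genes that fell in this setting, and they keep genes that rose. In that setting Klrk1, Klrc1 and Il2rb no longer passed (0.49, 0.23 and 0.34, adjusted p = 0.071, 0.0514 and 0.158). In OFF3 minus TUM 11 rose and 1 fell, beside 13.4% and 16% of all genes, and leaving out OFF3 replicate 3 gave the same 2 counts for the list.

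**Figure D4:**
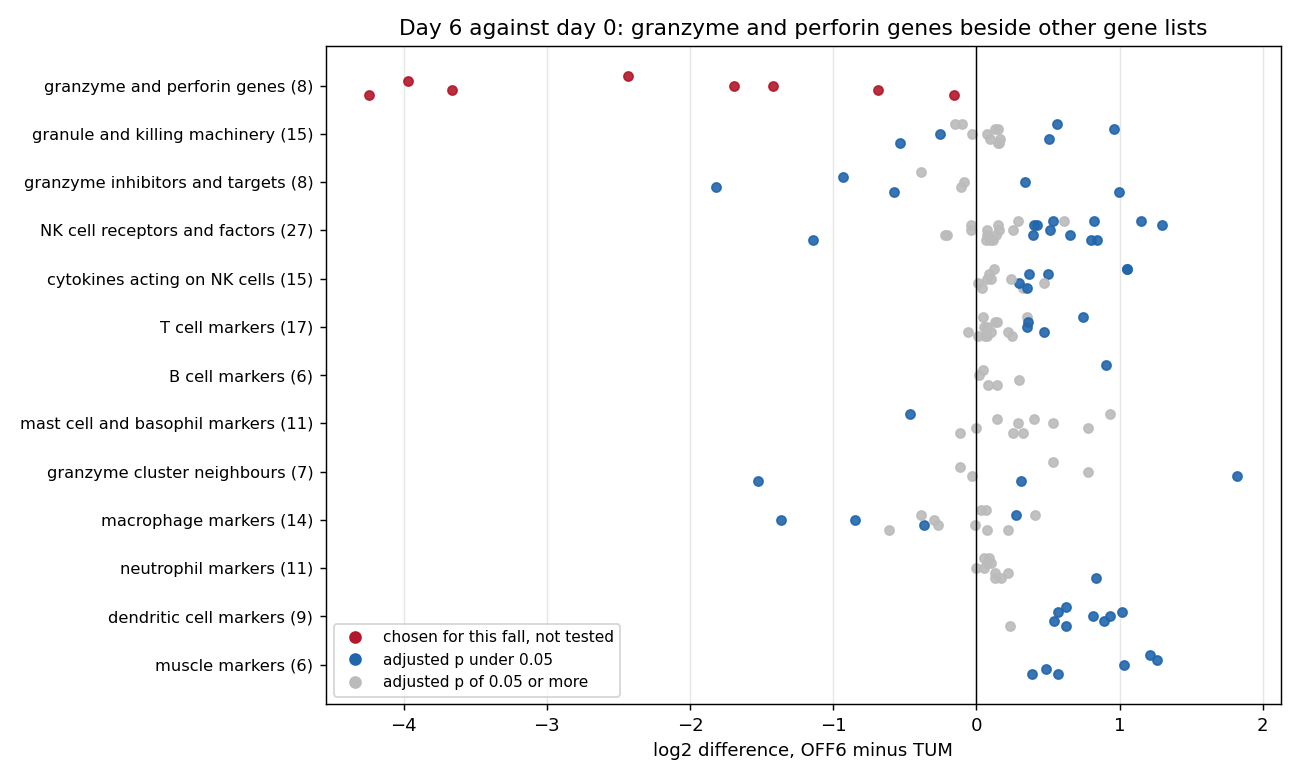
Log2 difference OFF6 minus TUM (horizontal axis) of every measured gene of each list, with the number measured in parentheses and points spread vertically for legibility; red points are the 8 genes chosen for this difference, blue points passed an adjusted p under 0.05 and grey points did not. The 8 run from -4.24 to -0.16, while the NK list runs from -1.14 to 1.29.

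Cytokines and receptors that act on NK cells rose in part. Of 15 measured genes 6 rose and 0 fell in OFF6 minus TUM by limma, where a further 9 did not pass. Of all genes 14.9% were called higher there and 16.6% lower. Il12b and Il12a, the chains of IL-12, rose by 1.05 and 0.50, and Tgfb3, of the TGF-beta family that restrains NK cells, by 1.05 (adjusted p = 0.000428, 0.0203 and 9.27e-08). Il12a was higher in CTL, at 6.42 to 6.87, than in OFF6, at 5.75 to 6.11. Il15, which sustains NK cells, rose by 0.71 ± 0.21 in OFF3 relative to TUM (adjusted p = 0.0208) and was at 0.32 in OFF6 (adjusted p = 0.275).

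Other cells that can hold granule proteases were checked by their markers, and their part in the granzyme values was not tested. Of 17 T cell markers 1 was higher and 10 lower in TUM than in CTL, beside 30.3% of all genes higher and 45.9% lower. In OFF6 minus TUM 4 rose and 0 fell, beside 14.9% and 16.6% of all genes. The counts of these 17 markers were not tested against those shares. Cd3e, a chain of the T cell receptor complex, measured 6.04, 5.99 and 5.93 in TUM, 5.96, 6.11 and 6.18 in OFF3, 6.39, 6.09 and 6.14 in OFF6, and 6.72, 6.56 and 6.56 in CTL. It fell by 0.63 in TUM relative to CTL (adjusted p = 3.66e-05 by limma), where the 8 genes were higher. Cd8a was at 0.25 and Cd4 at 0.35 in OFF6 minus TUM (adjusted p = 0.0575 and 0.266), and Thy1, Zap70 and Cd2 rose by 0.74, 0.47 and 0.36. Cd4 was 2.27 higher in TUM than in CTL, and it is also expressed by some dendritic cells. The T cell sum was 1367 to 1388 in TUM, 1750 to 2174 in OFF3, 1600 to 2137 in OFF6 and 1374 to 1457 in CTL. Cd22 was the B cell marker of 6 that passed at day 6, at 0.90.

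Mast cell and basophil markers, 11 in all, had 7 risen and 2 fallen in OFF3 minus TUM by limma, beside 13.4% and 16% of all genes. In OFF6 minus TUM 0 rose and 1 fell, Gata2 by 0.46, beside 14.9% and 16.6% of all genes. Without OFF3 replicate 3 the markers had 0 risen and 2 fallen in OFF3 minus TUM, where Cpa3 was at 0.90 ± 0.32 (limma's adjusted p = 0.0672). Without OFF6 replicate 2 they had 8 risen and 2 fallen there. Cpa3, a mast cell carboxypeptidase, was at 0.26 and Mcpt4, a chymase, at 0.78 in OFF6 minus TUM (adjusted p = 0.549 and 0.121). Their sum was 2383 to 2452 on TUM arrays, 3705 to 5654 on OFF3 arrays, 2235 to 5534 on OFF6 arrays and 1126 to 1199 on CTL arrays. At day 3 this sum lay above day 0 on all arrays, and that of the 8 genes below it.

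Among 14 macrophage markers 1 rose (Ctss, 0.28) and 3 fell in OFF6 minus TUM, beside 14.9% and 16.6% of all genes. The 3 were Msr1, by 1.37, Itgam, by 0.85, and Cd68, by 0.37. Without OFF6 replicate 2 the counts were 0 and 7. Their sum was 32116 to 33265 in TUM, 37067 to 38725 in OFF3, 28040 to 38357 in OFF6 and 4887 to 5431 in CTL. In OFF6 minus TUM, with the same all-gene shares, 1 of 11 neutrophil markers rose, Csf3r by 0.84. Of 9 dendritic cell markers 8 rose, led by Clec9a at 1.02, Ccr7 at 0.94 and Siglech at 0.89. Of 6 muscle markers 6 rose, among them Mb by 1.26, Myog by 1.21 and Myh4 by 1.03, and the muscle sum was 18826 to 19617 in TUM, 28167 to 33341 in OFF3, 28700 to 31904 in OFF6 and 43002 to 44364 in CTL. The CTL arrays, labelled muscle, had the highest muscle sum, and no marker was listed at an intensity of 0 on any array.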

How the data were processed

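RNA of 12 samples in 4 groups of 3 was hybridised to Affymetrix mouse arrays with 1 colour, as total RNA turned into biotin-labelled cRNA per the labels' protocols. The file deposited by the authors holds a linear intensity per probe set, made with RMA per the submitters' processing notes, whose version is not given in the sources used here. Log2 was taken. Of 34760 probe sets, 21640 carried 1 gene symbol, 1321 several and 11799 none. Where a gene had several (954 genes), that of highest mean level stood for it, leaving 19937 genes with no filter on low values. Median intensity per array was 86.74 to 93.05, and precision is set by the number of arrays. The files used here hold no detection call, so a low level may be background, and slide or scan batches could not be checked.

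Group means were estimated from the 12 arrays together in limma 3.58.1 (functions lmFit and eBayes, R 4.3.3), two-sided, adjusted within each comparison. The fit was also run on simulated data with independent normal values and few genes changed, in OFF3 only. Far larger shares of genes were called in these data, so nothing is concluded from that run. Promoters were aligned with Biopython 1.88, and figures drawn with matplotlib 3.10.9 in Python 3.11.15. The members and lists were chosen with earlier results of these data known. All members, a set list of pathway and marker genes, up to 3 called rises and 3 called falls per list in OFF6 minus TUM, and the 10 genes most like the members are named, and other genes named were picked for their place in the cluster or their role after values were seen. Listed genes without a value of their own were not analysed here. Same-numbered replicates were not paired: their deviations correlated at -0.29 to 0.25, over 0.1 in 2 of 12 pairs. Alternatives were other probe set rules, scalings, variance models, thresholds, a replicate block and leaving out each array.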

Additional observations from a re-analysis of the deposited data

How the results depend on the processing

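Of 350 values recomputed for members in the 2 tested comparisons, 336 kept their direction and side of the threshold, 11 lost and 3 gained a call, and 0 changed sign. Of 525 in the untested day 6 comparisons, 3 changed sign, all for Gzmb in OFF6 minus OFF3 (-0.14 without OFF3 replicate 3, -0.03 without OFF6 replicate 2, -0.20 with array weights), and 1 moved by more than the spread, Prf1 in OFF6 minus CTL to 0.44 with arrays centred. The lost calls were those of Gzmc and Gzmf at day 3 given above, Gzma for TUM minus CTL and Gzmb and Gzmc at day 3 with a fold of at least 2, and Gzmc over all probe sets. Gzma at day 3 gained one with array weights (0.41), without OFF3 replicate 3 (0.52) or without OFF6 replicate 2 (0.34). The number of members called in OFF3 minus TUM ran from 5 to 8 over the arrays left out, and in TUM minus CTL it was 8 throughout. For members above the median level, which drops Gzma, the median was -2.43 in OFF6 minus TUM and 2.18 in OFF6 minus CTL. In OFF6 minus CTL it was 1.32 with arrays centred on their median and 1.34 with array weights. Genes called in TUM minus CTL, 15199 in all, were 8401 above the median level, 4451 with a fold of at least 2 and 23072 of all probe sets. With array weights 11175 were called in OFF3 minus TUM, 10545 in OFF6 minus TUM and 8424 in OFF6 minus OFF3, against 5868, 6279 and 2080. With a fold of at least 2 the counts were 760, 892 and 108. Only the 6 arrays compared gave 30 in OFF6 minus OFF3, and leaving out single arrays gave 452 (OFF6 replicate 3) to 4874 (OFF6 replicate 2), with 521 without OFF6 replicate 1, 990 without OFF3 replicate 1 and 905 without OFF3 replicate 2. In OFF6 minus TUM the granule list had 10 called with array weights and 0 with a fold of at least 2 (5 at adjusted p alone), the NK list 4 above the median level, 19 and 3, and the other lists 10 with that fold. With array weights the share of higher calls was 55.3% in OFF3 minus TUM, 53.7% in OFF6 minus TUM and 48.9% in OFF6 minus OFF3, against 45.5%, 47.2% and 58% as deposited, so which direction had more calls changed in each. Centring moved the share of higher calls in OFF6 minus CTL to 27.2% from 43.8%, and moved the all-gene median in TUM minus CTL, -0.15 as deposited, to -0.29 (quantile normalisation, -0.04). The cause of these shifts was not tested.

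With a replicate block, 14821, 5476, 5891 and 1654 genes were called in TUM minus CTL, OFF3 minus TUM, OFF6 minus TUM and OFF6 minus OFF3. Members called were 8 and 6 in the first and second comparisons, Gzmc being lost at day 3 (adjusted p = 0.0543). The members' medians were -2.06, -0.89 and 1.50, and the granule, NK and other lists had 5, 11 and 39 called. Pairing by number was not borne out, and 2 of 12 arrays correlated best with their own number.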
